A study of Mus musculus with 4 samples.

Results

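The genes that make cholesterol, and the genes controlled by or controlling SREBP2, were followed in mouse embryonic stem (ES) cells with and without a fluorescent tag on the coactivator p300. The set held 28 genes chosen by symbol for their known role. These were 19 enzymes of sterol synthesis, counting Ggps1 of its isoprenoid side branch, 4 genes of SREBP2 control, 3 of sterol transport and 2 fatty acid desaturases. Each symbol was matched to a single Ensembl identifier through GENCODE M21, so that the set made up 28 of the 54838 gene identifiers counted, and all 28 were among the 15191 genes that passed the filter on low counts. The knock-in line, MLC460, carries monomeric enhanced green fluorescent protein (mEGFP), placed by CRISPR/Cas9 editing at the N-terminus of its own p300, and it was compared with the wild-type E14 line (E14Tg2a.4, strain 129/Ola) from which it came. Both lines grew on gelatin in medium with 15% fetal bovine serum and 1000 U/ml leukemia inhibitory factor. There were 2 RNA sequencing libraries of each line, described by the submitters as biological replicates, and 1 knock-in line. Differences between the lines therefore include any that arose while that line was derived, and p-values measure only the spread between these libraries. The comparison asks whether adding the tag altered expression relative to the parent.

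Cholesterol is built from acetyl-CoA through mevalonate, isoprenyl diphosphates, squalene and lanosterol. Most enzymes of this route are transcribed together under SREBP2, a transcription factor held as an inactive precursor in the endoplasmic reticulum. When membrane sterol is low, the escort protein SCAP carries SREBP2 to the Golgi, where proteases release the active domain. When sterol is plentiful, the INSIG proteins retain SCAP, and the targets are transcribed less. Lipoproteins in serum are a source of cholesterol for cultured cells. Taken up and unpacked in lysosomes with the help of NPC1 and NPC2, they feed this control loop.

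The libraries held 25266051 and 18946731 gene-assigned reads in knock-in 1 and 2, and 26553998 and 21791128 in wild-type 1 and 2. Ep300, which encodes p300, stood at 181 and 210 CPM (counts relative to library size, scaled by the TMM method) in the knock-in libraries, against 209 and 210 CPM in the wild-type libraries, and these counts do not tell tagged from untagged transcripts. Wild-type 2 stood apart from the other libraries in base composition. Across 8948 genes, the deviation of its values from the mean of the other libraries correlated with gene GC content (Spearman's rho 0.79). Computed in the same way, rho was -0.53 and -0.61 in the knock-in libraries and -0.44 in wild-type 1. The summed level of 9 pluripotency markers lay between 13569 and 13971 TPM (CPM divided by exon length and rescaled to 1 common sum per library) in knock-in libraries and between 13001 and 13767 TPM in wild-type libraries, so the markers of the labelled cell type were abundant in all 4. Of 10 primitive endoderm markers, 7 passed the low-count filter. The summed level of the 10 was 9.05 to 9.96 TPM in knock-in and 16.6 to 17.3 TPM in wild-type libraries, with Afp at 0 in every library. Of the 7, Amn and Hnf4a were lower in CPM in each knock-in library than in either wild-type library. The other 5 (Gata4, Gata6, Sox7, Dab2 and Apob) overlapped between lines. Of 9 fibroblast markers, 5 passed. The summed level of the 9 was 18.8 to 21.5 TPM in knock-in and 31.9 to 32.9 TPM in wild-type libraries, with Lum at 0 in every library. Of the 5, Col1a1, Col1a2, Pdgfrb and Thy1 were lower in each knock-in library in the same way, and Pdgfra overlapped. Of 6 neural markers, 4 passed. The summed level of the 6 was 232 to 239 TPM in knock-in and 236 to 372 TPM in wild-type libraries. Of the 4, Nes was lower in each knock-in library and 3 overlapped. By the same measure, 23.9% of all tested genes were lower in knock-in. The part that such markers play in the values below was not tested, and in bulk RNA fewer cells of a type and less RNA per cell cannot be told apart.

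A few stretches of promoter, upstream of the RefSeq start, are shown because they belong to the genes on which the results turn. Srebf2 and Insig1 had the highest levels of the set in TPM with all annotated exons as length, and Idi1 had the largest difference between lines. Among members with a promoter window at hand, Hmgcs1 alone held an exact match to the sterol response element letters given below. The sequences are from RefSeq on GRCm38.p6, plus strand, 250 bases each, at chr13:119690101-119690350 (Hmgcs1), chr13:8885356-8885605 (Idi1), chr15:82147019-82147268 (Srebf2) and chr5:28071162-28071411 (Insig1). Capitals mark, on either strand, the sterol response element TCACNCCAC, the NF-Y box CCAAT, the GC box GGGCGG and the E-box CACGTG, none of which contains another.
Hmgcs1: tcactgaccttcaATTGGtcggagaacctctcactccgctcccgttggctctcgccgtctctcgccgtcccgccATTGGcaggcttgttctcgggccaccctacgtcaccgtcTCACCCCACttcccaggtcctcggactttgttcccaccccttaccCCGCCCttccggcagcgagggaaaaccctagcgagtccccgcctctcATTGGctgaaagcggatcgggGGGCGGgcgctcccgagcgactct
Idi1: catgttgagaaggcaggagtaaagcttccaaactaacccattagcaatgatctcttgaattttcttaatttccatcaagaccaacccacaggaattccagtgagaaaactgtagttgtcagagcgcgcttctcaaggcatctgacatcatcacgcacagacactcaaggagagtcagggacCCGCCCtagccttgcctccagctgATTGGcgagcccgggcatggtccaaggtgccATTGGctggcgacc
Srebf2: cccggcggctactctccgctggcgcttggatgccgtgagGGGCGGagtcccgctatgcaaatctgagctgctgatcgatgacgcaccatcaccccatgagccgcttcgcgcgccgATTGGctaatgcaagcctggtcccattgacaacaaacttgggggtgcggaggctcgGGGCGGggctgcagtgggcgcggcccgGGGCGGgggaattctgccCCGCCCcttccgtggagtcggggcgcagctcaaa
Insig1: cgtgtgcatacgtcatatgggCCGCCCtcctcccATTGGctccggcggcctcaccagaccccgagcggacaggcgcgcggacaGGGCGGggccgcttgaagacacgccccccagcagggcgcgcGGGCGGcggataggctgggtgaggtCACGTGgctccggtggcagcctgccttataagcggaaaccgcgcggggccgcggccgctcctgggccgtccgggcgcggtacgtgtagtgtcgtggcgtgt
RefSeq windows of 250 bases before to 50 after a start were at hand for 22 of the 28 members, in 28 windows. The response element letters were in 1 of these 28 windows (3.57%), against 1.24% of 14038 windows of tested genes. The NF-Y box was in 19 windows (67.9%, against 37.8% of tested-gene windows), the GC box in 23 (82.1%, against 61.5%) and the E-box in 6 (21.4%, against 9.79%). A match describes the letters and is no evidence of binding. Only exact matches were counted, so the lack of a match does not show that an element is absent.

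The pathway was well expressed in both lines. Summed over the 28 genes, the level was 1823 and 1915 TPM in knock-in libraries and 2061 and 1816 TPM in wild-type libraries, and the wild-type values lay on both sides of the knock-in values. By mean level, 24 of the 28 genes lay above the median tested gene and 7 above the 90th percentile. Srebf2, which encodes SREBP2 itself, was highest of all, at 182 and 198 TPM in knock-in and 214 and 219 TPM in wild-type libraries. Insig1, a sterol-regulated brake on SCAP, followed at 156 and 171 TPM in knock-in and 170 and 143 TPM in wild-type libraries. Next came the mevalonate enzymes Mvd, at 128 and 131 TPM in knock-in and 157 and 189 TPM in wild-type libraries, and Pmvk, at 125 and 134 TPM in knock-in and 131 and 148 TPM in wild-type libraries. The squalene synthase gene Fdft1 came after them, at 125 and 127 TPM in knock-in and 141 and 136 TPM in wild-type libraries. Of 27 neighbouring pairs in this order, 5 had library ranges that did not overlap. These were Srebf2 over Insig1, Sqle over Npc2, Lss over Insig2, Tm7sf2 over Ggps1, and Hsd17b7 over Fdps. The library ranges of the other neighbours overlapped, although a gene could still be the higher within every library, as Acat2 was over Hmgcs1. The order also depended on the length used. With the longest annotated transcript as length, Npc2 stood above Sqle (105 against 96.5 TPM on average). Pmvk then stood above Insig1 (145 against 137 TPM). At the low end stood Npc1 (10.9 TPM on average), Hsd17b7 (10.6 TPM) and Fdps (3.59 TPM). The Fdps level, and with it the gap to Hsd17b7, is uncertain for the reason given below.

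On GRCm38, the members described most closely below lie on several chromosomes. In the mevalonate arm they are Acat2 (chr17:12942890-12960747), Hmgcs1 (chr13:119690379-119708260), Mvk (chr5:114444269-114460591), Pmvk (chr3:89454541-89469013), Mvd (chr8:122433601-122443422), Idi1 (chr13:8885501-8892451) and Ggps1 (chr13:14050659-14063488). In the sterol arm they are Fdft1 (chr14:63145150-63179578), Cyp51 (chr5:4081145-4104746) and Dhcr7 (chr7:143823145-143848410). The control, transport and desaturase genes are Srebf2 (chr15:82147181-82205379), Scap (chr9:110333288-110384950), Insig1 (chr5:28071363-28078662), Npc1 (chr18:12189692-12236400) and Fads2 (chr19:10062765-10101746). Hmgcs1, Idi1 and Ggps1 share chromosome 13, and Mvk, Cyp51 and Insig1 share chromosome 5.

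**Figure D1:**
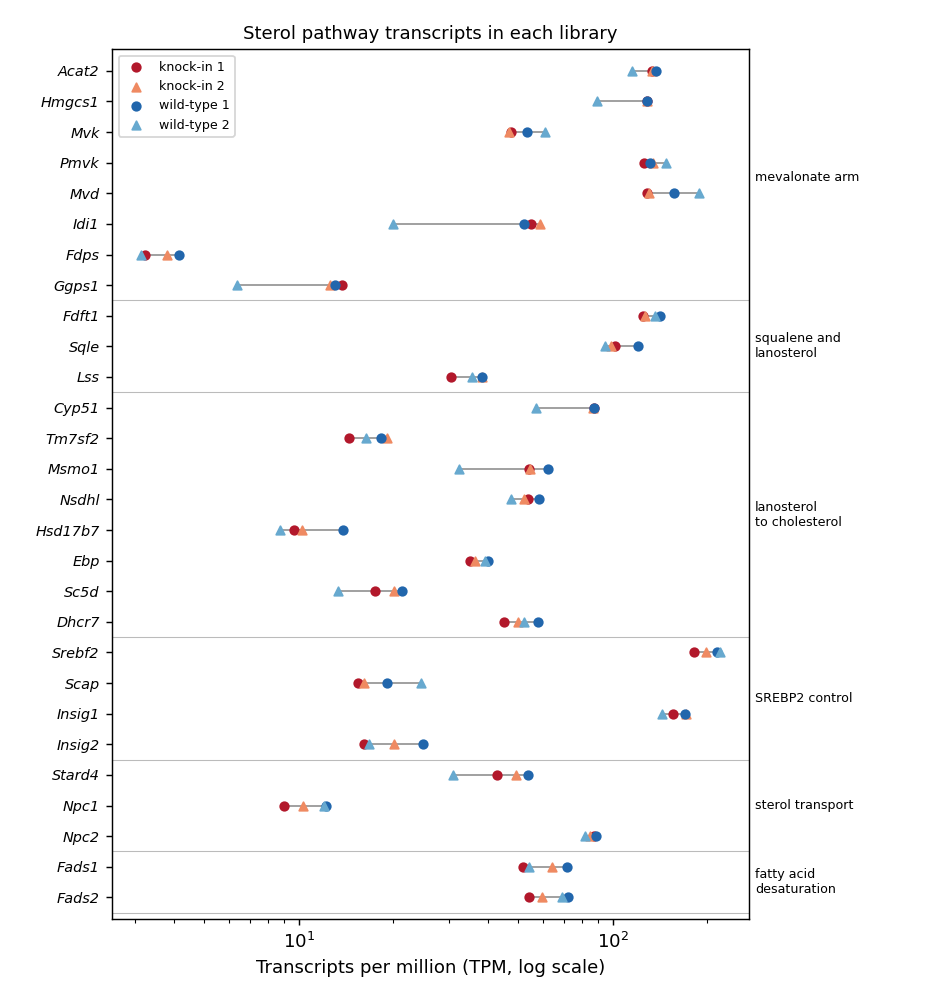
Level of each of the 28 genes in every library, in TPM on a log axis, grouped by role, with 2 knock-in and 2 wild-type points per gene. Srebf2 and Insig1 stand highest (means of 203.5 and 160 TPM), and Fdps lowest (3.59 TPM), a value made uncertain by exons shared with another gene model.

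The Fdps value is uncertain. Fdps makes farnesyl diphosphate, the branch point to sterols and to protein prenylation. Of its 4208 exon bases, counted over all annotated transcripts together, 1124 (26.7%) are shared on the same strand with the gene model Gm43738. The shared part of any single Fdps transcript was not measured, and it can be larger. Gm43738 received 0 and 1 read in the knock-in libraries and 0 and 0 in the wild-type libraries. The counter assigns a read that overlaps several genes to none of them, so Fdps reads in the shared exons would be missing from its count. It had 4.31 and 4.82 CPM in knock-in and 5.01 and 4.09 CPM in wild-type libraries, ranges that overlapped. In all, 10 members share exon bases with another gene. The smallest share was 3.53% of the exon bases (Lss), and the largest after Fdps were 18.3% for Fdft1 with Ctsb and 13.2% for Scap. The strand was not kept, so opposite-strand partners are affected in the same way.

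In the comparison between lines, no member passed an adjusted p of 0.05. With edgeR's quasi-likelihood test and Benjamini-Hochberg adjustment over all genes tested, 0 of 28 members were called, where 0.0658% of all genes were (10 of 15191, 1 higher and 9 lower in knock-in). None of the 28 had an unadjusted p under 0.05 either, against 10.9% of all genes. DESeq2 also called 0 members (0.86% of all genes), with 0 at an unadjusted p under 0.05, and limma-voom called 0 (0.0263% of all genes), with 1 at an unadjusted p under 0.05. For either method, the share of all genes under the unadjusted cut was not computed. The lowest adjusted p among members was 0.455. The median log2 fold change, knock-in over wild-type, was -0.05 over the 28 members and 0.00 over all genes tested (single values below are given ± SE), with 12 members positive and 16 negative. On TMM-scaled CPM, the values of the knock-in libraries lay entirely above those of wild-type for 7 members and entirely below for 9. These 16 of 28 (57.1%) compare with 47.4% of all tested genes whose groups did not overlap (23.4% higher and 23.9% lower), a share near the background from which nothing is read. On TPM, 2 members were above (Hmgcs1, Idi1) and the same 9 below, and Acat2, Ggps1, Cyp51, Insig1 and Npc2 overlapped. On that scale 43.6% of all genes did not overlap, 14.1% above and 29.4% below, so all genes were tilted the same way. The 95% interval of the fold change lay within 2-fold in either direction for 26 of 28 members, the exceptions being Idi1 and Ggps1, and within 1.5-fold for 14. Of all 15191 genes, 10390 (68.4%) had an interval within 2-fold and 4832 (31.8%) within 1.5-fold.

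**Figure D2:**
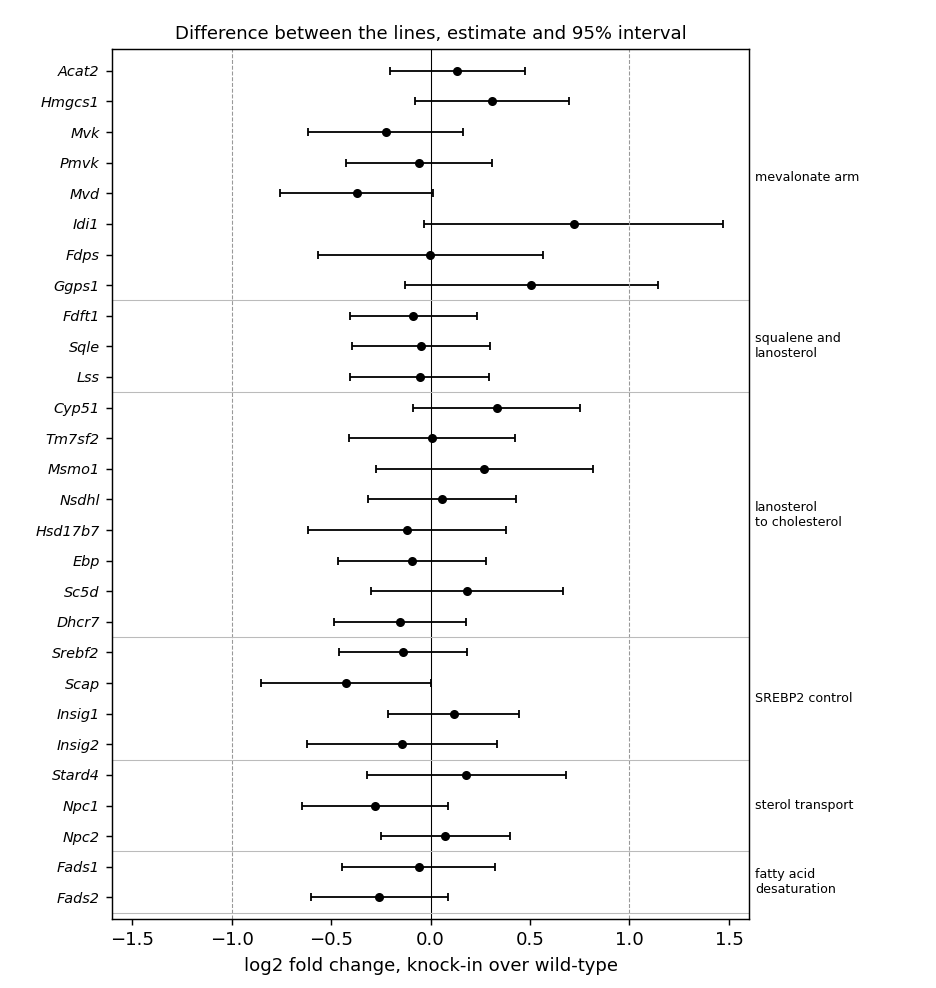
Log2 fold change of each member, knock-in over wild-type, with its 95% interval from edgeR, grouped by role. Every interval crosses 0, and those of Idi1 and Ggps1 alone reach beyond a 2-fold difference.

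Among the 8 genes of the mevalonate arm, which turns acetyl-CoA into isoprenyl diphosphates, the median log2 fold change was 0.07 (range -0.37 to 0.72), with 4 positive and 4 negative. Acat2, the cytosolic thiolase that makes acetoacetyl-CoA, stood at 108 and 102 CPM in knock-in and 101 and 90.4 CPM in wild-type libraries. Hmgcs1, which condenses acetoacetyl-CoA with acetyl-CoA to form HMG-CoA, stood at 187.5 and 178 CPM in knock-in and 169 and 126 CPM in wild-type libraries. Both genes were higher in each knock-in library than in either wild-type library. The log2 fold change was 0.13 ± 0.15 for Acat2 (adjusted p = 0.736) and 0.31 ± 0.17 for Hmgcs1 (adjusted p = 0.51). Without wild-type 2 the value was 0.05 for Acat2 and 0.10 for Hmgcs1, and without wild-type 1 it was 0.22 for Acat2 and 0.54 for Hmgcs1. The 2 kinases and the decarboxylase that follow ran the other way or overlapped. Mvk, mevalonate kinase, stood at 40.3 and 37.5 CPM in knock-in and 40.9 and 50.3 CPM in wild-type libraries, with -0.23 ± 0.17 on the log2 scale (adjusted p = 0.615), or -0.08 without wild-type 2 and -0.37 without wild-type 1. Pmvk, phosphomevalonate kinase, stood at 68.0 and 69.1 CPM in knock-in and 64.5 and 78.1 CPM in wild-type libraries, which overlapped (log2 fold change -0.06 ± 0.16, adjusted p = 0.908). Mvd, which decarboxylates mevalonate diphosphate to isopentenyl diphosphate, stood at 75.6 and 72.9 CPM in knock-in, below the 83.9 and 108 CPM of the wild-type libraries, with -0.37 ± 0.17 on the log2 scale (adjusted p = 0.462), or -0.19 without wild-type 2 and -0.54 without wild-type 1.

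Idi1, which isomerises isopentenyl diphosphate to dimethylallyl diphosphate, had the largest difference of the set. It stood at 60.8 and 61.6 CPM in the knock-in libraries, against 52.6 and 21.5 CPM in the wild-type libraries. The wild-type libraries differed from each other by a log2 ratio of -1.29, wild-type 2 over wild-type 1, more than the lines differed from each other. The log2 fold change was 0.72 ± 0.33, with a 95% interval of -0.03 to 1.47 and an adjusted p of 0.462. Without wild-type 2 it was 0.20 (adjusted p = 0.402), and without wild-type 1 it was 1.51 (adjusted p = 7.8e-26). Without the low-count filter the adjusted p was 0.0327, and Idi1 was the 1 member called there, where 1.31% of all genes were. Ggps1, which makes geranylgeranyl diphosphate for protein prenylation, had 20.5 and 17.8 CPM in knock-in and 17.7 and 9.26 CPM in wild-type libraries. Here too both knock-in values lay above both wild-type values, wild-type 2 being the low one, and the log2 fold change was 0.51 ± 0.28 (adjusted p = 0.508), or 0.11 without wild-type 2 and 1.05 without wild-type 1.

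From farnesyl diphosphate to lanosterol, the 3 log2 fold changes lay between -0.09 and -0.05. Fdft1, which joins farnesyl units into squalene, stood at 167 and 161 CPM in knock-in and 171 and 177 CPM in wild-type libraries, with both knock-in values the lower (log2 fold change -0.09 ± 0.14, adjusted p = 0.827). Sqle, the epoxidase that makes squalene epoxide, stood at 178 and 164 CPM in knock-in and 192 and 162 CPM in wild-type libraries. Lss, which cyclises that epoxide to lanosterol, stood at 104 and 124 CPM in knock-in and 119 and 118 CPM in wild-type libraries. Both overlapped between lines, Sqle with a log2 fold change of -0.05 and Lss with -0.06, and all 3 intervals lay within 1.5-fold. The summed level of the 3 genes averaged 260 ± 5.17 TPM in knock-in and 283 ± 23.7 TPM in wild-type libraries (SD, n = 2 each).

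Between lanosterol and cholesterol the 8 enzymes had a median log2 fold change of 0.03 (range -0.15 to 0.33). Cyp51, the lanosterol 14-demethylase, stood at 122 and 115 CPM in knock-in and 110.2 and 77.8 CPM in wild-type libraries, the knock-in values above both, with 0.33 ± 0.19 on the log2 scale (adjusted p = 0.51). Without wild-type 2 the value for Cyp51 was 0.09, and without wild-type 1 it was 0.61. Msmo1, the C4-methylsterol oxidase, stood at 105 and 101 CPM in knock-in and 110 and 61.4 CPM in wild-type libraries, so that wild-type 1 was highest and wild-type 2 lowest. Its log2 fold change was 0.27 with all libraries, 0.75 without wild-type 1 and -0.10 without wild-type 2. Dhcr7, which reduces 7-dehydrocholesterol in the last step of one branch, stood at 83.2 and 87.2 CPM in knock-in and 96.2 and 93.2 CPM in wild-type libraries, with both knock-in values below (log2 fold change -0.15 ± 0.15, adjusted p = 0.691). Ebp, the sterol isomerase, was below by a smaller margin, at 25.6 and 25.4 CPM in knock-in and 26.6 and 27.8 CPM in wild-type libraries. Tm7sf2 and Nsdhl, a reductase and a dehydrogenase of the middle steps, had log2 fold changes of 0.01 and 0.06, and Hsd17b7 and Sc5d, a ketosteroid reductase and a desaturase, had -0.12 and 0.18. All 4 overlapped between lines, and their CPM ran from 15.6 (Hsd17b7) to 48.6 (Nsdhl) in knock-in and from 13.8 (Hsd17b7) to 47.7 (Nsdhl) in wild-type libraries.

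Of the genes that control SREBP2, Srebf2 stood at 414 and 428 CPM in knock-in and 442 and 486 CPM in wild-type libraries, with both knock-in values below and a value of -0.14 ± 0.14 on the log2 scale (adjusted p = 0.711). After correction for GC content it was 0.07, with both knock-in values above. Scap, the escort that carries SREBP2 to the Golgi, had the lowest p of the set. It stood at 36.3 and 36.0 CPM in knock-in, below the 40.9 and 56.2 CPM of the wild-type libraries, with -0.43 ± 0.19 on the log2 scale (95% interval -0.85 to 0.00, adjusted p = 0.455). The value was -0.19 without wild-type 2 and -0.63 without wild-type 1. Insig1 stood at 153 and 159 CPM in knock-in and 151 and 137 CPM in wild-type libraries, with both knock-in values above (log2 fold change 0.12 ± 0.15, adjusted p = 0.767), and the value was 0.03 without wild-type 2 and 0.19 without wild-type 1. Insig2, its close relative, overlapped at 17.8 and 20.99 CPM in knock-in and 24.8 and 17.9 CPM in wild-type libraries. Insig1 exceeded Insig2 by 9.64 and 8.51 times in TPM in knock-in libraries and by 6.82 and 8.58 times in wild-type libraries, so Insig1 was the more abundant INSIG transcript in all 4 libraries, and the ratios overlapped.

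Of the transport genes, Npc1, the lysosomal membrane transporter, stood at 32.1 and 35.1 CPM in knock-in and 39.6 and 42.0 CPM in wild-type libraries, with both knock-in values below (log2 fold change -0.28 ± 0.16, adjusted p = 0.516). Npc2, its soluble partner, stood at 150.2 and 139 CPM in knock-in and 138 and 137 CPM in wild-type libraries, with a log2 fold change of 0.07. Stard4, a cytosolic sterol carrier, stood at 75.7 and 82.5 CPM in knock-in and 86.4 and 53.2 CPM in wild-type libraries, and the wild-type values lay on both sides. Its log2 fold change was 0.18 with all libraries, 0.57 without wild-type 1 and -0.14 without wild-type 2. The desaturases Fads1 and Fads2 make long-chain polyunsaturated fatty acids. Fads2 stood at 56.3 and 59.2 CPM in knock-in, below the 68.0 and 70.0 CPM of the wild-type libraries, with -0.26 ± 0.15 on the log2 scale (adjusted p = 0.523). Fads1 stood at 78.9 and 92.5 CPM in knock-in and 98.5 and 80.1 CPM in wild-type libraries, which overlapped, with a log2 fold change of -0.06.

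Much of the spread among members lay between the wild-type libraries. The median absolute log2 ratio between replicates was 0.08 for the knock-in pair and 0.29 for the wild-type pair, beside a median absolute difference between lines of 0.14. Over 8951 genes of at least 10 CPM the same values were 0.10, 0.27 and 0.17, in the same order. For 19 of the 28 members the wild-type replicates differed by more than the lines did, and for 8 the knock-in replicates did. A ratio of 2 single libraries varies more than a difference between means of 2 libraries, so this comparison leans toward the replicates. No member differed by over 1.5-fold between the knock-in libraries, and 4 did between the wild-type libraries. The shares of all genes matching these counts were not computed. The wild-type ratio followed base composition: across the 28 genes, whose longest transcripts span 40.1% to 59.1% GC, the log2 ratio of wild-type 2 to wild-type 1 had a Spearman's rho of 0.84 with GC content, against 0.09 for the ratio of knock-in 2 to knock-in 1. This is a description over genes that share the same 2 libraries. AT-rich members such as Idi1 (41.9% GC) and Ggps1 (40.1%) were lower in wild-type 2 than in wild-type 1, and GC-rich members such as Mvd (59.0%) and Scap (59.1%) were higher. The part of base composition in the differences between lines was not tested. With each library corrected for GC content, the log2 fold change was 0.55 for Idi1, 0.25 for Ggps1, 0.12 for Hmgcs1, -0.14 for Mvd and -0.19 for Scap, all nearer 0, and -0.39 for Npc1, -0.27 for Hsd17b7, -0.22 for Insig2, 0.17 for Acat2 and 0.16 for Npc2, all farther from 0. In all, 20 members moved nearer 0 and 8 farther from it, and 0 members were called (1.16% of all genes). With this correction 3 members had an unadjusted p under 0.05 in edgeR's quasi-likelihood test. The share of all genes under that cut was not computed with the correction, so nothing is read from this count. The groups of 13 members did not overlap after correction, 8 above and 5 below in knock-in, where 49.2% of all genes did not. After the correction, Idi1 still differed between the wild-type libraries by -0.78, and the median absolute ratio of the wild-type pair over the members was 0.12, against 0.10 for the knock-in pair. Across the members, the corrected wild-type ratio still had a Spearman's rho of 0.45 with GC content.

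**Figure D3:**
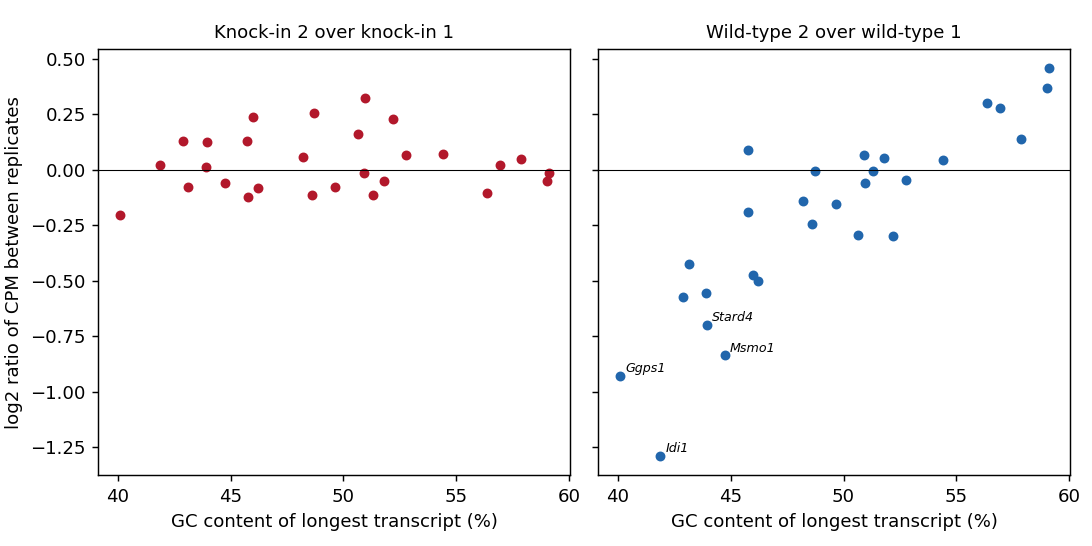
Log2 ratio between the replicates of each line against the GC content of the longest transcript in percent, knock-in in the left panel and wild-type in the right, 1 point per member. Wild-type ratios climb with GC content (Spearman's rho 0.84, n = 28 genes), whereas knock-in ratios show no such trend (rho 0.09).

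Leaving out 1 library moved the number of calls. Without wild-type 1, 11 of 28 members were called (39.3%, 7 higher and 4 lower), where 32.1% of all genes were. Of these, Cyp51, Ggps1, Hmgcs1, Idi1, Msmo1, Sc5d and Stard4 were higher and Mvd, Mvk, Npc1 and Scap lower. In that fit wild-type 2 stands alone for its line and is assumed to vary like the knock-in pair. With GC correction and without wild-type 1, 4 were called (14.3%, where 11.5% of all genes were), namely Cyp51, Idi1, Msmo1 and Npc1. No member was called without wild-type 2 (4.39% of all genes), without knock-in 1 (0.107%) or without knock-in 2 (0.099%).

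**Figure D4:**
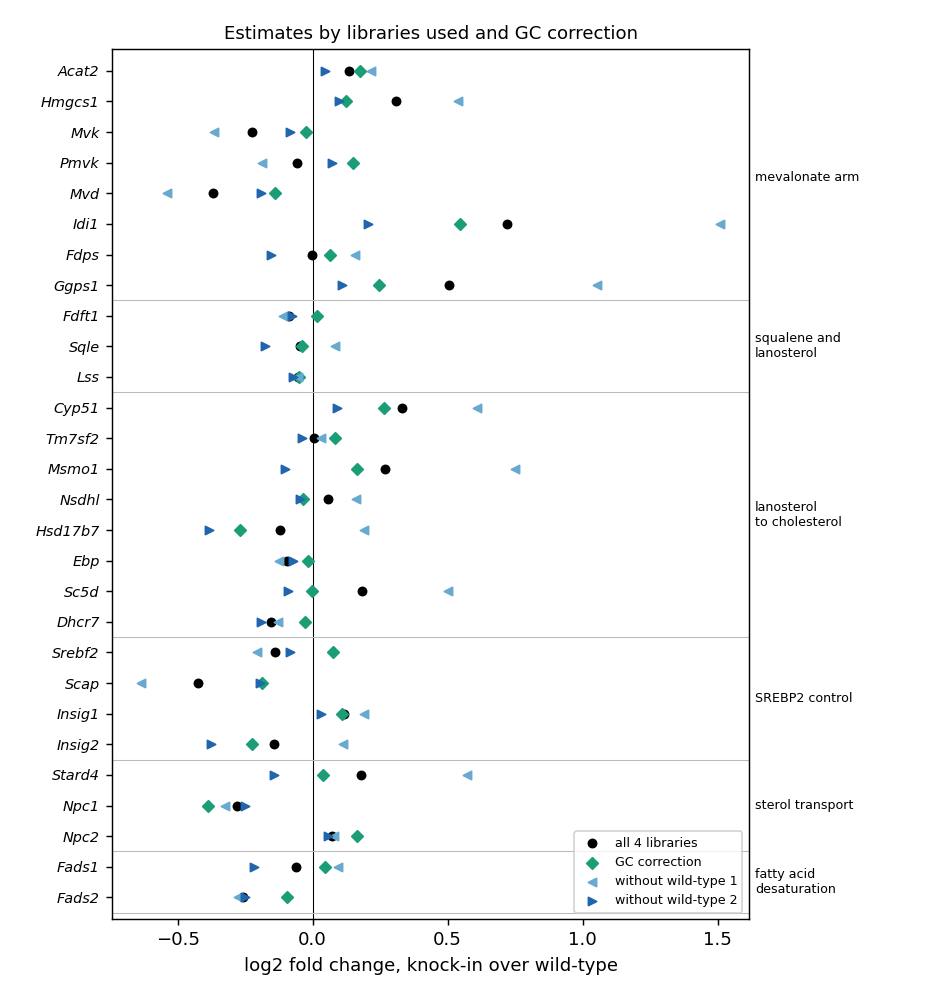
Log2 fold change of each member, knock-in over wild-type, with all 4 libraries, with GC correction, without wild-type 1 and without wild-type 2. The estimates of Idi1 range most widely, at 0.20 without wild-type 2, 0.55 with GC correction, 0.72 with all libraries and 1.51 without wild-type 1.

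The neighbouring pathways had no called gene either. The 12 genes of the isoprenoid branch, which uses farnesyl and geranylgeranyl diphosphate for prenylation, ubiquinone and dolichol, had a median log2 fold change of 0.05 (range -0.34 to 0.37). Pggt1b, a subunit of a protein prenyltransferase, had 0.37 and Pdss1, which makes the ubiquinone side chain, had 0.36. Without wild-type 2 they had 0.24 (Pggt1b) and 0.18 (Pdss1), and without wild-type 1 they had 0.49 (Pggt1b) and 0.56 (Pdss1). The 11 genes of SREBP processing and sterol sensing had a median of 0.00 (range -0.16 to 0.38), with Mbtps2, the intramembrane protease that releases SREBP, at 0.38 and Rnf139 at 0.19. Without wild-type 2, Mbtps2 was at 0.07 and Rnf139 at -0.0012, and without wild-type 1 they were at 0.76 (Mbtps2) and 0.39 (Rnf139). The 18 genes of fatty acid synthesis had a median of 0.01 (range -0.33 to 0.40), with Acsl3, an acyl-CoA synthetase, at 0.40 and the transcription factor gene Mlxipl at -0.33. Acsl3 was at 0.08 without wild-type 2 and at 0.78 without wild-type 1. The 16 genes of sterol transport and esterification had a median of -0.08 (range -0.50 to 0.42). In this list 3 of 16 genes had an unadjusted p under 0.05, where 10.9% of all genes had. These were the cholesterol esterification enzyme Soat2, the lipoprotein receptor Vldlr and, named after its values were seen, the HDL receptor Scarb1. Soat2 stood at 5.67 and 6.48 CPM in knock-in and 8.17 and 9.04 CPM in wild-type libraries, with -0.50 ± 0.22 on the log2 scale (adjusted p = 0.45). Vldlr stood at 24.3 and 27.8 CPM in knock-in and 34.9 and 37.7 CPM in wild-type libraries, with -0.48 ± 0.17 on the log2 scale (adjusted p = 0.408), and Scarb1 stood at 60.1 and 66.0 CPM in knock-in and 91.9 and 82.3 CPM in wild-type libraries, with -0.47 ± 0.16 on the log2 scale (adjusted p = 0.378). All 3 were lower in each knock-in library than in either wild-type library, and none passed after adjustment with all libraries. Without wild-type 2, Scarb1 (adjusted p = 7.3e-05) and Vldlr (adjusted p = 0.0273) passed with edgeR's quasi-likelihood test, where 4.39% of all genes did. Without wild-type 1 all 3 did, where 32.1% of all genes did.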

How the data were processed

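RNA from 2 knock-in and 2 wild-type ES cell cultures was sequenced from Illumina TruSeq libraries, per the labels' protocols. The authors deposited raw read counts per gene, 1 table per library; Trim Galore, STAR 2.5.3a and the build GRCm38 (mm10) are named in the submitters' processing notes, and the release of the gene annotation is not given in the sources used here. Symbols, coordinates and exon lengths came from GENCODE M21, which matched 54809 of 54838 identifiers. The unstranded column was used. Summary lines that name no gene were left out of library sizes: unmapped reads were 2.38% to 4.39%, multimapping 3.80% to 4.46%, outside features 2.23% to 3.67% and ambiguous 5.96% to 6.38%.

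Counts were tested with edgeR 4.0.16 in R 4.3.3 (TMM scaling, filterByExpr with a minimum count of 10, quasi-likelihood F test, genotype as the only term, all 4 libraries), with Benjamini-Hochberg adjustment over 15191 genes and a threshold of 0.05. Standard errors were the absolute log2 fold change over the square root of F. CPM and TPM were computed here from the deposited counts, TPM with the union of annotated exons as length. The fit was tested on simulated data. Alternatives were DESeq2 1.42.0, limma-voom (limma 3.58.1), other scalings, filters and lengths, the reverse-strand counts, a replicate block, a spline on GC content (5 degrees of freedom), and leaving out each library.

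The members, lists and tests were chosen with earlier results of these data known. Full statistics were given for members past the threshold, then up to 12 with the largest absolute log2 fold change among those of at least 5 mean CPM whose groups did not overlap, and for the 5 highest by TPM; from each further list, the 2 largest.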

Additional observations from a re-analysis of the deposited data

How the results depend on the processing

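With 2 libraries a line, the spread between the wild-type libraries set the precision. Genes past the threshold numbered 10, but 354 without the low-count filter, 197 with the replicate block, 123 with DESeq2, 4 with limma-voom, 176 with GC correction and 410 with GC correction and the block; leaving out 1 library gave 16 to 5015. Members past it numbered 0, but 1 (Idi1) without the filter, with the block (adjusted p = 0.0239), and with GC correction and the block (adjusted p = 0.0053); leaving out 1 library gave 0 to 11. At an unadjusted p under 0.05 in edgeR's quasi-likelihood test, members numbered 0 in the main fit. They numbered 4 without the filter, 2 with a stricter one, 3 with GC correction and 4 in the reverse-strand counts. The shares over all genes at those settings were not computed. The median over members was -0.083 to 0.089 when a library was left out. The labels state no pairing of the samples by replicate number. Deviations of same-numbered libraries correlated at -0.18 over 8951 genes, a value that cannot decide the question with 2 libraries a line. A crossed block, chosen after seeing the data, gave 509 genes and 1 member.

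The sign of small log2 fold changes depended on the setting, and the cause was not tested. With GC correction, then GC correction and the block, the values became 0.15 and 0.15 for Pmvk, 0.065 and 0.070 for Fdps, 0.016 and 0.016 for Fdft1, -0.037 and -0.038 for Nsdhl, -0.0036 and -0.0024 for Sc5d, 0.074 and 0.075 for Srebf2, and 0.047 and 0.055 for Fads1. Fdps became 0.0077 with DESeq2 size factors, 0.0091 with DESeq2 and 0.0038 with the replicate block. Tm7sf2 became -0.014 without the filter, -0.017 with a stricter one, -0.0019 with the block and -0.0081 with limma-voom, and Nsdhl -0.0094 in the reverse-strand counts. Leaving out 1 library, with or without GC correction, gave -0.19 to 0.17 for Pmvk, -0.15 to 0.22 for Fdps, -0.13 to 0.054 for Fdft1, -0.16 to 0.24 for Tm7sf2, -0.11 to 0.16 for Nsdhl, -0.090 to 0.50 for Sc5d, -0.20 to 0.13 for Srebf2, -0.22 to 0.24 for Fads1, -0.37 to 0.041 for Mvk, -0.18 to 0.082 for Sqle, -0.18 to 0.067 for Lss, -0.10 to 0.75 for Msmo1, -0.38 to 0.19 for Hsd17b7, -0.12 to 0.0062 for Ebp, -0.19 to 0.039 for Dhcr7, -0.38 to 0.11 for Insig2, -0.14 to 0.57 for Stard4 and -0.0052 to 0.23 for Npc2. With the longest transcript as length, 14 of 28 levels moved by more than their spread, and Srebf2 was still first. Pmvk then came ahead of Insig1, and Npc2 ahead of Sqle.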
